A study of Brassica rapa with 5 samples.

Results

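Leaves of Brassica rapa, a Brassicaceae crop, were compared between plants short of Fe and plants short of Zn, with no use of the control in the comparison. The samples were chosen by their labels, Fe deficiency and Zn deficiency, and are 2 of the 5 conditions of the series. All plants were of accession R-o-18 and grew in hydroponics for 14 days with Zn at 2 µM and Fe at 3 µM, without added Cd. For the next 7 days the solution held 0.05 µM Fe in Fe deficiency and 0.005 µM Zn in Zn deficiency. The other conditions, used below only to place the levels of genes that differed, were 50 µM Zn (Zn excess), 1 µM Cd (Cd exposure) and the first solution throughout (normal supply). The first pair of expanded leaves was taken, and each condition had 3 replicates of 3 plants, deposited as 1 table that averages the 3 libraries. Each condition is therefore 1 sample.

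Fe and Zn are both needed as cofactors. Fe is built into haem and iron-sulphur proteins, which include carriers of photosynthetic and respiratory electron transport, and it is needed for chlorophyll synthesis, so that leaves short of Fe turn yellow. Zn is held by many transcription factors and by enzymes such as carbonic anhydrase. In Arabidopsis, a relative of this species, the uptake systems of the 2 metals are linked, since the main root Fe transporter also carries Zn, and plants in excess Zn show signs of Fe shortage. The gene identifiers could not be paired with names here (0 of 29183 were in the reference gene table), so genes are given by identifier with no role, and the leaf label was not checked against marker genes.

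Levels are TPM, tags per 1000000 clean tags of a library, where a tag is a short sequence that marks a transcript. On average a library held 3435599 tags in genes in Fe deficiency and 3311219 tags in Zn deficiency, which were 58.6% and 57.7% of clean tags. Of 27659 genes listed in at least 1 of these tables, 11128 had a mean of at least 5 TPM over both and were compared. Close to that limit, 988 genes had a mean of 5 to 6 TPM and 1161, left out, of 4 to 5 TPM. A difference is log2(TPM + 1) in Fe deficiency minus the same in Zn deficiency, a scale that makes differences of low genes look smaller. The tag and TPM columns weight the 3 libraries differently, and the mismatch between them gives 1 estimate per gene and table of the spread between libraries. At 5 to 30 TPM this spread was 24.8% of the level in Fe deficiency and 40.7% in Zn deficiency, where counting error alone gives 12.5% and 12.8%. In Zn deficiency it compares almost wholly the libraries with the highest and the lowest clean-tag total (5908301 and 5575674 tags), since the remaining one has 2.48% of the weight.

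Fe deficiency and Zn deficiency differed at least 2-fold in 603 genes (5.42% of those compared). Of these, 357 genes (3.21%) were higher in Fe deficiency and 246 (2.21%) were lower. The genes higher in Fe deficiency together held 29417 TPM in Fe deficiency and 10671 TPM in Zn deficiency, and the lower ones 13009 TPM in Fe deficiency and 43478 TPM in Zn deficiency. Differences were mostly close to 2-fold, with a median of 1.21 on the log2 scale among higher and -1.35 among lower genes. At least 4-fold differences were found for 33 higher and 51 lower genes, and at least 8-fold for 20 and 22.

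The balance between higher and lower genes turned with the scaling. The median gene was 0.17 higher in Fe deficiency, and 64.6% of genes lay above 0. With size factors by the median of ratios, a correction of 0.19, there were 196 genes higher and 406 lower, so that 32.6% of the differing genes were higher in place of 59.2%. The 196 were all among the 357, and the 406 included all 246. No direction of the transcriptome as a whole can therefore be given from these tables.

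Fewer genes differed by more than the recovered spread. With limma on that spread, 82 genes (0.737%) were higher and 62 (0.557%) lower in Fe deficiency at an adjusted p under 0.05, 1.29% of genes in both directions, and each of these also differed at least 2-fold. With size factors the counts were 59 and 80. At an adjusted p under 0.01, a limit chosen after the data were seen, 41 were higher and 41 lower. In simulated libraries 16 of 97 genes called at 0.05 were unchanged ones, against 0 of 53 at 0.01, so the error rate at 0.05 exceeded the nominal one. Only 8.25% of genes simulated with a 2-fold difference were found, against 88.0% with a 4-fold difference. A gene that misses the limit is thus not shown to be alike in both deficiencies. Each simulated gene had the same spread, relative to the trend on level, in all conditions and varied independently of other genes. The simulated rates, also that at 0.01, therefore need not hold for genes that vary in 1 condition or together.

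**Figure D1:**
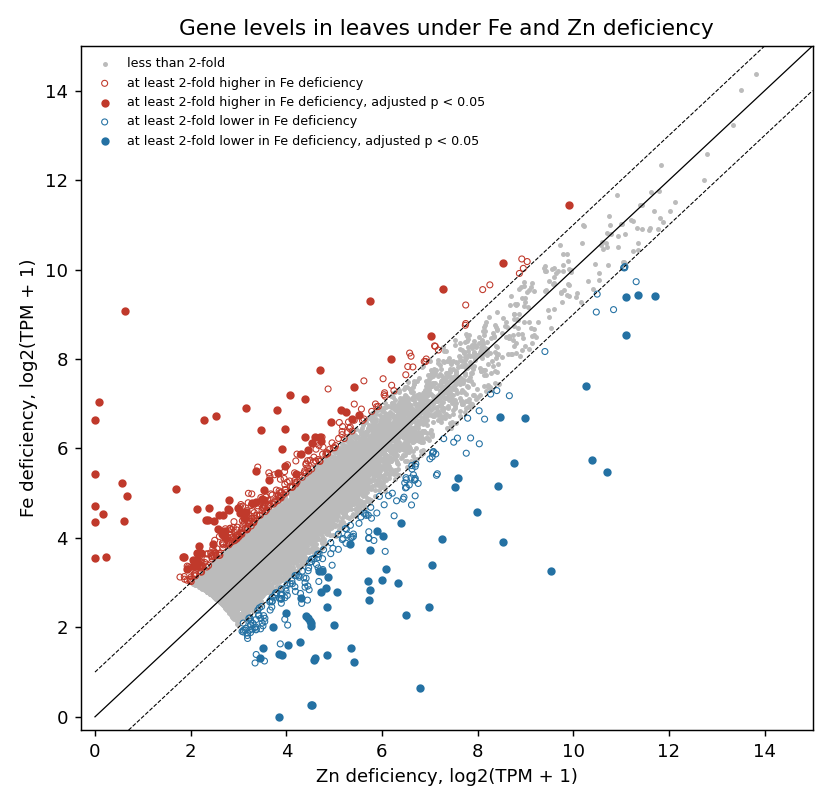
Levels of 11128 genes in Fe deficiency (vertical axis) and Zn deficiency (horizontal axis), both as log2(TPM + 1), with 1 point per gene; the solid line marks equal levels, the dashed lines 2-fold, and filled points an adjusted p under 0.05 (limma). The 357 higher genes lie above the upper dashed line and the 246 lower genes below the lower one, with a group of higher genes at the left edge that were close to 0 in Zn deficiency.

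The largest difference on the log2(TPM + 1) scale was in Bra005795. It had 536 TPM in Fe deficiency and 0.556 TPM in Zn deficiency, a log2 difference of 8.43 (SE 0.44, limma adjusted p 9.59e-07). Its level was 358 TPM in Zn excess, 3.93 TPM in Cd exposure and 2.17 TPM in normal supply, so that it was abundant in Fe deficiency and Zn excess and low elsewhere. Bra009099 had the same pattern, with 131 TPM in Fe deficiency, 0.0572 TPM in Zn deficiency, 86.0 TPM in Zn excess, 1.97 TPM in Cd exposure and 0.864 TPM in normal supply. Its log2 difference was 6.96 (SE 0.27, limma adjusted p 2.42e-07). That SE holds no spread of the gene's own from Zn deficiency, where it was below 0.5 TPM. The Zn deficiency value rests on 1 tag in 3 libraries against 2295 tags in Fe deficiency, a ratio of 2247 per clean tag with a 95% interval of 403 to 88777 (exact, counting error only). With a pseudocount of 0.1 the log2 difference of Bra009099 was the larger, at 9.70 against 9.68 for Bra005795.

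Such near absence in Zn deficiency was shared by few genes. Of the 357 higher genes, 12 were under 1 TPM in Zn deficiency, Bra005795 and Bra009099 among them. With a mean of at least 5 TPM over both tables, these genes were compared only because of their level in Fe deficiency, so a large difference was fixed by that minimum. All 12 passed the test, but their p-values add no support to a difference fixed in this way. In all 12, Zn excess was on the side of Fe deficiency, while Cd exposure and normal supply were on the side of Zn deficiency. Among them, 5 genes had no tag in Zn deficiency. These had 10.8 to 98.8 TPM in Fe deficiency, at least 61.9-fold to at least 568-fold more than the 0.174 TPM that 3 tags over the 3 Zn deficiency libraries would give. They had 11.3 to 114 TPM in Zn excess, and at most 1.39 TPM in Cd exposure and 0.464 TPM in normal supply.

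Among genes lower in Fe deficiency, Bra005677 differed most on the log2(TPM + 1) scale. It had 8.65 TPM in Fe deficiency and 739 TPM in Zn deficiency (log2 difference -6.26, SE 0.60, limma adjusted p 0.000107). The levels in Zn excess, Cd exposure and normal supply were 11.7, 152 and 136 TPM. The Zn deficiency value was thus the highest of the 5 and the values in Fe deficiency and Zn excess the lowest. Bra039194 had 0.567 TPM in Fe deficiency and 109 TPM in Zn deficiency (log2 difference -6.14, SE 0.61, limma adjusted p 0.000472). It stood at 0.460 TPM in Zn excess, 0.751 TPM in Cd exposure and 0.414 TPM in normal supply, so only Zn deficiency was high. The order of these 2 genes turned with a pseudocount of 0.1, where the log2 difference was -6.40 for Bra005677 and -7.36 for Bra039194, and with the tag column (-6.36 and -6.63). Of the 246 lower genes, 4 were under 1 TPM in Fe deficiency, Bra039194 among them. Such genes were compared only because of their level in Zn deficiency. A large difference was thus fixed for them by the minimum mean of 5 TPM. All 4 passed the test, but their p-values add no support to it.

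The Zn deficiency level of Bra039194 came largely from 1 library. Both columns together leave between 86.1% and 93.5% of its 1933 tags to the library with the highest total. The other 2 Zn deficiency libraries averaged between 11.3 and 23.4 TPM, so the log2 difference without that library lies between -3.96 and -2.97. For Bra005677 the same library held between 35.0% and 69.7% of 12874 tags, and the difference without it lies between -6.24 and -5.18.

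The share of genes that differed did not fall with abundance. Of 6891 genes with a mean of 5 to 20 TPM, 2.87% were higher and 1.86% lower in Fe deficiency by 2-fold. Of 131 genes above 500 TPM, 8 (6.11%) were higher and 14 (10.7%) lower, and 2 and 7 of them passed the test. The median SE was 0.32 in both groups. The median difference was 0.17 in the first and -0.004 in the second, so the general shift towards Fe deficiency was not present among the most abundant genes.

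The conditions outside the comparison show which deficiency stood apart. For each differing gene, normal supply, Zn excess and Cd exposure were placed on the side of the deficiency from which log2(TPM + 1) differed less. The genes were chosen on the Fe and Zn deficiency tables, so the counts describe the genes and test nothing. Among the 357 genes higher in Fe deficiency, Fe deficiency stood alone in 157 (44.0%), with the other 4 conditions on the other side, and Zn deficiency stood alone in 55 (15.4%). Among the 246 lower genes the order was the other way, with Fe deficiency alone in 18 (7.32%) and Zn deficiency alone in 95 (38.6%). Over all 11128 genes these shares were 26.5% for Fe deficiency and 30.2% for Zn deficiency. By this placement, a high level in 1 deficiency was thus more common among the differing genes than a low level in 1 deficiency. This held with size factors (35.7% for Fe deficiency and 16.3% for Zn deficiency alone among higher genes, 9.85% and 33.0% among lower ones). By 2-fold against normal supply it did not hold among lower genes. Of these, 84 were below normal supply in Fe deficiency alone and 76 above it in Zn deficiency alone. Most of the 95 genes also leaned towards 1 Zn deficiency library, as given below.

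Zn excess was the condition most often found with Fe deficiency. It lay on the Fe deficiency side in 42.3% of higher and 73.6% of lower genes, against 53.1% of all genes. Normal supply did so in 26.3% of higher and 52.0% of lower genes (50.1% of all), and Cd exposure in 34.5% and 64.6% (52.8% of all). Among higher genes all 3 shares lay below those of all genes, and among lower genes all 3 above. Fe deficiency and Zn excess together stood against the other 3 conditions in 57 higher genes (16.0%) and 61 lower genes (24.8%), and in 9.96% of all genes. These genes also passed the test most often, with 31 of the 57 and 37 of the 61, against 82 of 357 and 62 of 246 of all differing genes. Of the 31 and 37, 12 and 1 were under 1 TPM in 1 deficiency, so their large difference was fixed by the minimum mean. The median differences of the 57 and 61 genes were 1.72 and -1.96.

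**Figure D2:**
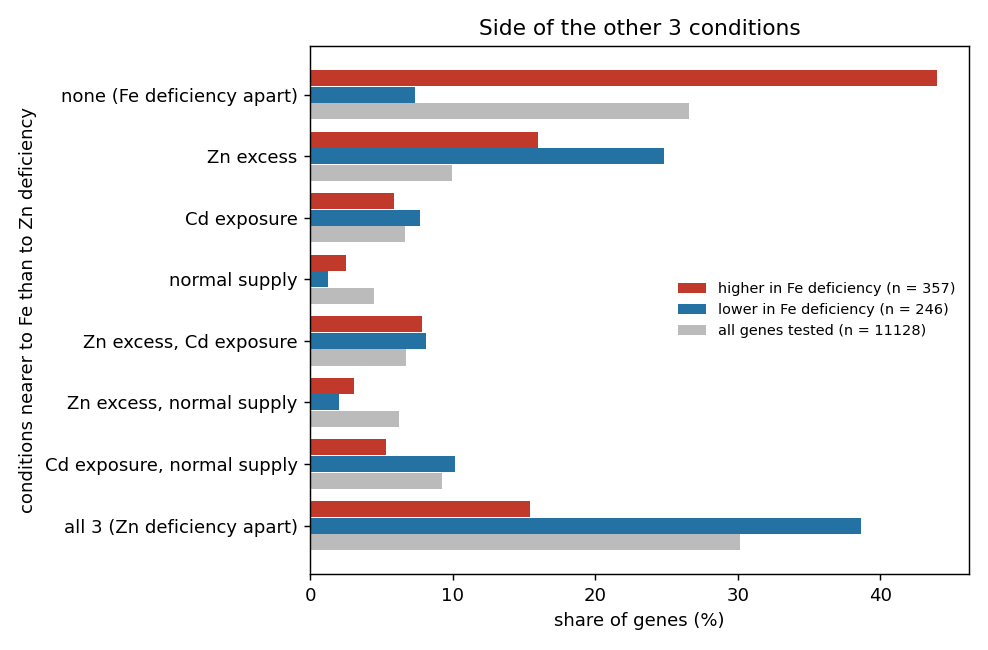
Share of genes (horizontal axis, %) by which of Zn excess, Cd exposure and normal supply were nearer to Fe than to Zn deficiency, for the 357 higher genes, the 246 lower genes and all 11128 genes tested. Bars for Fe deficiency alone are longest among higher genes (44.0%), and bars for Zn deficiency alone among lower genes (38.6%).

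Against normal supply, 160 of the 357 higher genes were at least 2-fold above it in Fe deficiency and less than 2-fold below it in Zn deficiency. The reverse, a 2-fold lower level in Zn deficiency alone, was found for 13, both for 7 and neither for 177. Of the 246 lower genes, 84 were at least 2-fold below normal supply in Fe deficiency alone, 76 at least 2-fold above it in Zn deficiency alone, 8 both and 78 neither. So 177 and 78 of the differing genes were within 2-fold of normal supply in each deficiency and passed 2-fold only in the direct comparison.

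Of the 157 genes with Fe deficiency alone high, 25 rose past the test. Their median level was 25.8 TPM in Fe deficiency and 9.44 TPM in Zn deficiency, and 8.44 to 10.04 TPM in the other 3 conditions. In 97 of them Fe deficiency was at least 2-fold above each of the other 4 conditions. The largest difference was in Bra034394, with 625 TPM in Fe deficiency, 52.9 TPM in Zn deficiency, 153 TPM in Zn excess, 59.0 TPM in Cd exposure and 76.0 TPM in normal supply (log2 difference 3.54, SE 0.30, limma adjusted p 4.96e-05). Bra016768 followed with 23.9 TPM in Fe deficiency and 3.42 TPM in Zn deficiency, and 2.43 to 7.69 TPM in the other conditions (log2 difference 2.50, SE 0.28, limma adjusted p 0.000472). In both genes Zn excess was the second highest condition.

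Low levels in Fe deficiency alone were rare, with 18 genes, of which 3 fell past the test. In 6 of the 18, Fe deficiency was at least 2-fold below each other condition. Bra014702 had 3.63 TPM in Fe deficiency and 20.9 TPM in Zn deficiency (log2 difference -2.24, SE 0.35, limma adjusted p 0.00495). Bra011962 had 3.81 TPM in Fe deficiency and 20.3 TPM in Zn deficiency (log2 difference -2.15, SE 0.31, limma adjusted p 0.00278). Both had 9.18 to 15.5 TPM in the other 3 conditions, so Fe deficiency was lowest and Zn deficiency highest of the 5.

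Zn deficiency alone was high in 95 genes, with a median of 10.6 TPM in Fe deficiency, 24.6 TPM in Zn deficiency and 8.27 to 12.6 TPM in the other conditions. Only 9 of the 95 passed the test, 3 of them among the genes under 1 TPM in Fe deficiency. In 41 of the 95, Zn deficiency was at least 2-fold above each other condition. Beside Bra039194, the largest difference was in Bra027108, with 0.195 TPM in Fe deficiency, 22.2 TPM in Zn deficiency, 0.316 TPM in Zn excess, 1.71 TPM in Cd exposure and 0.941 TPM in normal supply (log2 difference -4.28, SE 0.35, limma adjusted p 0.000107). Bra027108, too, was compared only because of its level in Zn deficiency, so a large difference was fixed by the minimum mean and its p-value adds no support. Its SE holds no spread of its own from Fe deficiency or Zn excess, where it was below 0.5 TPM. Some of its tags were fractions, and 1 other gene, Bra031470, chosen after its values were seen, followed it within 0.03 on the log2 scale in all 5 conditions. Tags may be shared between these 2 genes, so they may not be separate observations.

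Zn deficiency alone was low in 55 genes, of which 6 passed the test. In only 4 of the 55 was Zn deficiency at least 2-fold below each other condition. Bra018942 had 188 TPM in Fe deficiency and 64.0 TPM in Zn deficiency, and 112 to 149 TPM in the other conditions (log2 difference 1.54, SE 0.53, limma adjusted p 0.212). Between 50.4% and 54.6% of its Fe deficiency tags were in the Fe deficiency library with the lowest total. Bra008303 had 22.4 TPM in Fe deficiency, 7.18 TPM in Zn deficiency and 13.1 to 18.5 TPM in the other conditions (log2 difference 1.52, SE 0.27, limma adjusted p 0.0138). Tags were partly fractions in Bra005795, Bra034394, Bra018942, Bra011962 and Bra027108, so their levels may include tags of similar genes. The other named genes had whole tag numbers over the 3 libraries in both deficiencies.

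**Figure D3:**
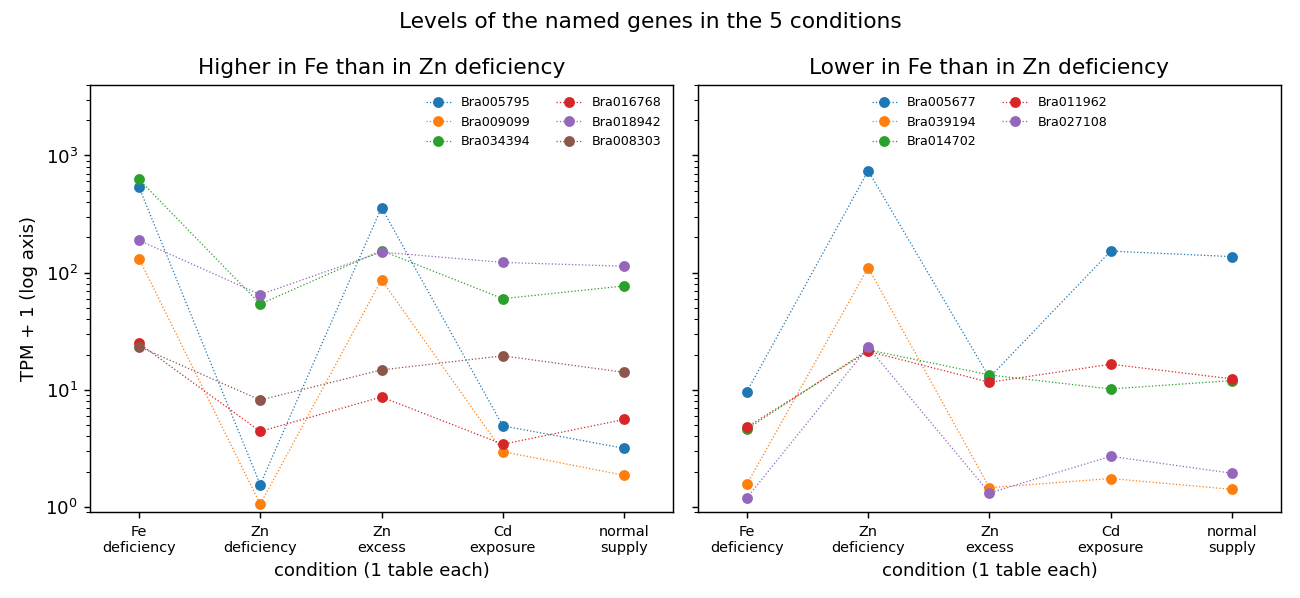
Level of each named gene as TPM + 1 on a log axis in the 5 conditions, 1 point per table, for genes higher (left) and lower (right) in Fe than in Zn deficiency; dotted lines join the points of 1 gene. Bra005795, Bra009099 and Bra005677 have Zn excess beside Fe deficiency, while Bra039194 and Bra027108 are high in Zn deficiency alone.

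The differing genes also varied together between the Zn deficiency libraries. Among lower genes, those with more transcript in Zn deficiency, 197 of 246 had a higher level in the Zn deficiency library with the highest total than in that with the lowest. The median gap was about 77.2% of the gene's mean level in Zn deficiency. Of the 348 higher genes above 0.5 TPM in Zn deficiency, 280 had the opposite sign, with a median gap of about -48.4%. Over all 11119 genes with a value, 5175 were higher in the library with the highest total, and the median gap was -4.50%. The Zn deficiency library with the highest total therefore lay further from Fe deficiency, for most of the differing genes, than the one with the lowest total.

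The lean was found in genes with either deficiency alone. In 90 of the 95 high there, the library with the highest total was above the one with the lowest, by a median of about 117% of the level, and in 50 of the 55 low there it was below (median about -63.2%). Of genes with Fe deficiency alone, 127 of the 157 high in Fe deficiency were below in that Zn deficiency library (median about -51.2%), and 16 of the 18 low in Fe deficiency were above (median about 37.1%). For 14 of the 95 genes over 50% of the Zn deficiency tags came from that library whatever the remaining one held, against 37 of 11119 genes in general. Genes with Fe deficiency and Zn excess together showed no such lean in Zn deficiency when lower (33 above and 28 below, median about 6.69%), and a smaller one when higher (32 of 48 below, median about -18.8%). Within Fe deficiency they leaned as well. In 55 of 60 lower ones the libraries with larger totals had the higher level, while in 37 of the 57 higher ones these libraries had the lower level. The 95 genes had a spread of 122.8% of their level between the Zn deficiency libraries, and the 60 lower genes one of 68.3% between the Fe deficiency libraries. The limma test averages the spread over the conditions in which a gene was above 0.5 TPM, so it understates that of genes that vary in 1 condition. What part this variation has in the differences was not tested.

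**Figure D4:**
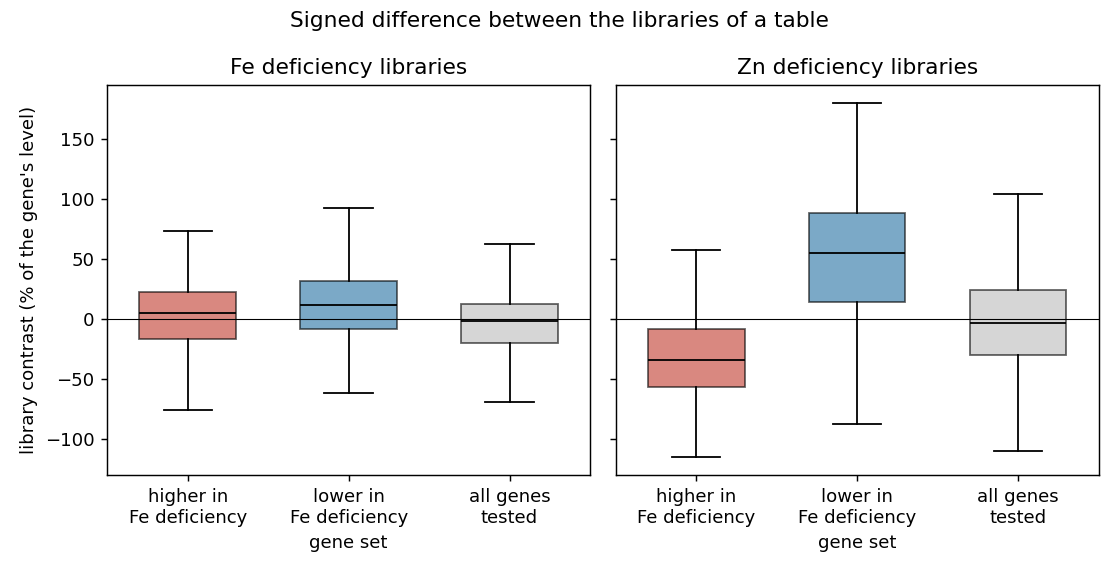
Library contrast of the genes (vertical axis, % of the gene's level; above 0, libraries with larger totals had the higher level) within Fe deficiency (left) and Zn deficiency (right), for genes higher and lower in Fe deficiency and all genes tested; boxes span the central 50% with the median, whiskers reach at most 1.5 box lengths. In the Zn deficiency libraries the higher genes lie mostly below 0 (280 of 348) and the lower genes mostly above 0 (197 of 246).

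The tag and TPM columns do not fix each library's value, but they bound what is left without 1 library. Without the Zn deficiency library with the highest total, 75 of the 357 higher and 66 of the 246 lower genes stayed at least 2-fold different at every value the columns allow. For 10 and 28 genes the difference was below 2-fold at every such value, and for the rest the columns do not decide. Of genes with Zn deficiency alone, 0 of the 55 low and 5 of the 95 high, the 5 including Bra039194, were certain to stay. Of genes with Fe deficiency and Zn excess together, 32 of 57 and 41 of 61 were. Larger differences are more likely to stay under such bounds, and the last group had the larger ones. Without the Zn deficiency library with the lowest total, 189 of the 357 and 193 of the 246 were certain to stay. The Fe deficiency libraries gave bounds as far apart. Without the one with the highest total, 47 of the 357 and 91 of the 246 were certain to stay, and without the one with the lowest total, 290 and 206. Without the Fe deficiency library with the lowest total, 31 of the 357 and 19 of the 246 were below 2-fold at every value the columns allow. No gene was certain to drop below 2-fold without the Fe deficiency library with the highest total, and the columns do not decide for the other 310 and 155.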

How the data were processed

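Digital gene expression libraries of leaf RNA were deposited as 1 table per condition, each a mean of 3 libraries per the labels and the values. Per the file headers, the deposited tables give the number of clean tags, estimated counts that need not be whole, and the TPM. Mapping tool, build and annotation: not given in the sources used here. The authors' TPM values were used as deposited, with 0 for genes that a table does not list. Differences are log2(TPM + 1), and genes with a mean of at least 5 TPM over the 2 tables were kept. Genes were called by 2-fold size, since each condition is 1 table.

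Library totals were read from genes with 1 tag in 1 library (the tag column divides it by 3), whose TPM took 3 common values per table (95.2% of 271 genes in Fe deficiency and 92.8% of 279 in Zn deficiency). Totals ranged from 5575674 to 5997199 over both tables. The tag mean minus TPM times the mean total is 0 where the 3 libraries agree. Its square was scaled by its trend on level and averaged over those of the 5 tables in which the gene was above 0.5 TPM. A table with a lower level gave no spread of the gene's own, only the trend. The average was moderated across genes (limma 3.58.1, R 4.3.3), which gave a median of 12.3 degrees of freedom, with Benjamini-Hochberg adjustment over 11128 genes. Bounds on the tags of 1 library are the values that both columns allow with no tag number below 0. p-values measure only the spread between these pools of plants. In data simulated for this comparison with no gene changed, an unadjusted p under 0.05 was found for 5.29% of 11021 genes. These data, too, were drawn with independent genes and no gene that varies more in 1 condition than its trend gives.

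The genes named are the 2 with the largest difference in each direction over all differing genes, over those with Fe deficiency alone and over those with Zn deficiency alone. The gene lists by product name were not run, as no identifier was matched. The comparison and its groups were chosen with earlier results of these data known.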

Additional observations from a re-analysis of the deposited data

How the results depend on the processing

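Counts by size moved with the settings. Genes at least 2-fold higher and lower in Fe deficiency numbered 169 and 153 with a pseudocount of 5, 159 and 118 with a minimum mean of 20 TPM, 196 and 406 with size factors, 188 and 133 among genes not flagged for fractional tags, and 33 and 51 at 4-fold. Through rounding, that flag also took in some genes with whole tags, Bra016768, Bra008303 and Bra014702 among them. Without a filter on low values 380 were lower. A minimum of 20 TPM, the restriction to genes not flagged and the 4-fold limit test fewer genes or ask for more. By construction, a pseudocount of 5 makes every difference smaller, size factors apply the correction of 0.19 given above, and no filter adds genes. Genes past the test numbered 40 and 33 with a minimum mean of 20 TPM, and 41 and 41 at an adjusted p under 0.01. With the spread taken from the 2 deficiency tables alone, 77 were higher and 70 lower, of which 68 and 60 were among the 82 and 62. Leaving out 1 library at a time, as far as the columns bound it and chosen after seeing the data, gave at the fewest 47 to 339 higher and 66 to 251 lower genes. These counts can include genes outside the reported sets, so they are not numbers of reported genes that stayed. The lowest value for higher genes came without the Fe deficiency library with the highest total, and that for lower genes without the Zn deficiency library with the highest total. The library with the middle total was not left out.

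Of 50 percentages of genes by side under alternatives, 41 stayed within the 95% exact binomial interval of the reported one. That interval takes genes as independent, and the settings share many genes and values, so it is only a yardstick for size. Among higher genes, Zn deficiency stood alone in 19.7% with a pseudocount of 0.1 and 9.47% with 5. With a pseudocount of 5, normal supply and Cd exposure were nearer to Fe deficiency in 20.7% and 29.0% of higher genes, Zn excess in 79.1% of lower genes, and Fe deficiency stood alone in 3.92% of lower genes. With a minimum of 20 TPM that last share was 3.39%. With size factors Cd exposure was nearer to Fe deficiency in 43.9% of higher genes, and Fe deficiency stood alone in 35.7%. Under both pseudocounts, size factors and the tag column no named gene of 11 changed direction, and 30 of 44 differences were within 1 SE of the reported one.

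No paired analysis was possible because the tables hold means of the replicates. Depth limits low genes: 3 tags over the 3 libraries equal 0.170 TPM in Fe deficiency and 0.174 TPM in Zn deficiency, counting error only.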
